A study of Mus musculus with 6 samples.

Results

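Acat2, Hmgcs1, Mvk, Pmvk, Mvd, Idi1, Fdps and Ggps1 encode the mevalonate arm of cholesterol synthesis, here in the order of the pathway. They are 8 of the 51912 genes in the count table, selected by symbol, each from the Ensembl identifier that GENCODE M21 pairs with it, and all 8 had enough reads to be tested. The pathway was picked with earlier results of the same comparison known, so its levels and fold changes are given as a description and support no claim of their own. RNA was sequenced by Smart-Seq2, which amplifies full-length cDNA from very little material, in cells from the testes of C57BL/6J pups on postnatal day 4. Flow sorting for THY1+ and c-KIT- cells was used to enrich spermatogonial stem cells, which maintain the male germ line. There were 3 Bud31-vKO libraries, from mice in which Bud31 was targeted by Cre recombination at loxP sites, and 3 wild type libraries with no other allele named. BUD31 is a component of the spliceosome, and the comparison asks how RNA levels in these cells differ when its gene is targeted. The labels name neither the Cre driver nor the number of cells or animals behind a library, so p-values measure the spread between libraries, which may be technical. The count columns carry the letters C and T, read as wild type and Bud31-vKO.

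The mevalonate arm turns acetyl-CoA into the isoprenoid diphosphates from which cells build cholesterol, dolichol, ubiquinone and the lipid anchors of prenylated proteins. ACAT2 and HMGCS1 build HMG-CoA, from which mevalonate is made, and MVK, PMVK and MVD phosphorylate and decarboxylate mevalonate to isopentenyl diphosphate. IDI1 isomerises that unit, FDPS joins units into farnesyl diphosphate, and GGPS1 extends farnesyl to geranylgeranyl diphosphate for protein prenylation. When sterols are scarce, the transcription factor SREBP2 switches on many of these genes, binding sterol regulatory elements beside NF-Y at CCAAT boxes and SP1 at GC boxes. In the testis, cholesterol made from this arm serves membranes and, in Leydig cells, androgen synthesis.

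The genes are spread over 5 chromosomes. On GRCm38, Acat2 (ENSMUSG00000023832) spans chr17:12942890-12960747 on the minus strand, Mvk (ENSMUSG00000041939) chr5:114444269-114460591 on the plus strand and Mvd (ENSMUSG00000006517) chr8:122433601-122443422 on the minus strand. Pmvk (ENSMUSG00000027952) at chr3:89454541-89469013, plus strand, and Fdps (ENSMUSG00000059743) at chr3:89093588-89101959, minus strand, lie on the same chromosome. Chromosome 13 holds Hmgcs1 (ENSMUSG00000093930) at chr13:119690379-119708260, plus strand, Idi1 (ENSMUSG00000058258) at chr13:8885501-8892451, plus strand, and Ggps1 (ENSMUSG00000021302) at chr13:14050659-14063488, minus strand. All are protein-coding, with 5 exons in the transcript of Pmvk with the most exons, 6 in Idi1, 7 in Ggps1, 9 in Acat2 and 11 in each of the other genes.

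Promoters are shown for 3 genes whose Bud31-vKO levels all lay below wild type, Hmgcs1, Mvk and Mvd, and for Ggps1, whose levels overlapped between genotypes. Those of Acat2, Pmvk and Idi1, whose levels were lower too, are not printed, and their matches are given below. The sequences are from RefSeq on GRCm38.p6, 5′ to 3′ along the gene, and end at the base before the start site. Capitals mark matches on either strand to a sterol regulatory element, TCACNCCAC, to the CCAAT box and to the GC box, GGGCGG. No match to one motif shared bases with a match to another, and 1 CCAAT box and 1 GC box of Hmgcs1 lie after the start, beyond the printed run. They lie at chr13:119690101-119690350 on the plus strand for Hmgcs1, chr5:114444019-114444268 on the plus strand for Mvk, chr8:122443423-122443672 on the minus strand for Mvd and chr13:14063489-14063738 on the minus strand for Ggps1.
Hmgcs1: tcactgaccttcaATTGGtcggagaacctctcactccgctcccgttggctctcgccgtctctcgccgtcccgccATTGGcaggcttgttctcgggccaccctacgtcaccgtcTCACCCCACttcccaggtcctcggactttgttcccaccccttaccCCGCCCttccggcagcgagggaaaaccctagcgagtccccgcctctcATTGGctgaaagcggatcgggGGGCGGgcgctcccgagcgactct
Mvk: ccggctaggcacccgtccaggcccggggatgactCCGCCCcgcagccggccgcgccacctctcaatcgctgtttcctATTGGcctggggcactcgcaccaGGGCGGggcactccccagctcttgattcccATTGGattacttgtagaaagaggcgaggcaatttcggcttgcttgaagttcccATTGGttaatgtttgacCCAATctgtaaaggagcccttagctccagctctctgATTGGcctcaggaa
Mvd: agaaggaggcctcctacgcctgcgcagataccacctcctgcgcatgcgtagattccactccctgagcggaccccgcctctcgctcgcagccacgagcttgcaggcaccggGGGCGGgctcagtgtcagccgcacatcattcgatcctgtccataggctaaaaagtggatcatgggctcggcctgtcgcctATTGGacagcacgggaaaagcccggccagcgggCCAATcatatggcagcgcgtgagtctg
Ggps1: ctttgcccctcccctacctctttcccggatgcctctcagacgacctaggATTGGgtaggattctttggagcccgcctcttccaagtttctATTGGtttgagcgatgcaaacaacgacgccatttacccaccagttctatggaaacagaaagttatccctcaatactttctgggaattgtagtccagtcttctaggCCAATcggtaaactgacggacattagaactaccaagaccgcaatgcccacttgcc

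RefSeq windows of 300 bases, 250 before and 50 after the start, were matched for 7 of the 8 genes, all but Fdps. Hmgcs1 held a sterol regulatory element, from base -137 to base -129 before the start, and 4 CCAAT boxes and 3 GC boxes in its window. Of all 32851 promoter windows, 1.24% held that element, 37.4% a CCAAT box and 35.7% a GC box. Mvk held 5 CCAAT and 2 GC boxes, Mvd 2 and 1, and Idi1 2 and 1, while Acat2 held 1 GC box and no CCAAT box. All matches of Idi1 lie before the RefSeq start but inside the gene as GENCODE places it above. Ggps1 held 3 CCAAT boxes and no GC box. Of the 2 starts listed for Pmvk, one window held 1 CCAAT box and the other none of the motifs. A pair or more of CCAAT boxes, as in Hmgcs1, Mvk, Mvd, Idi1 and Ggps1, occurred in 11.7% of all windows, and the letters describe these windows only.

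**Figure D1:**
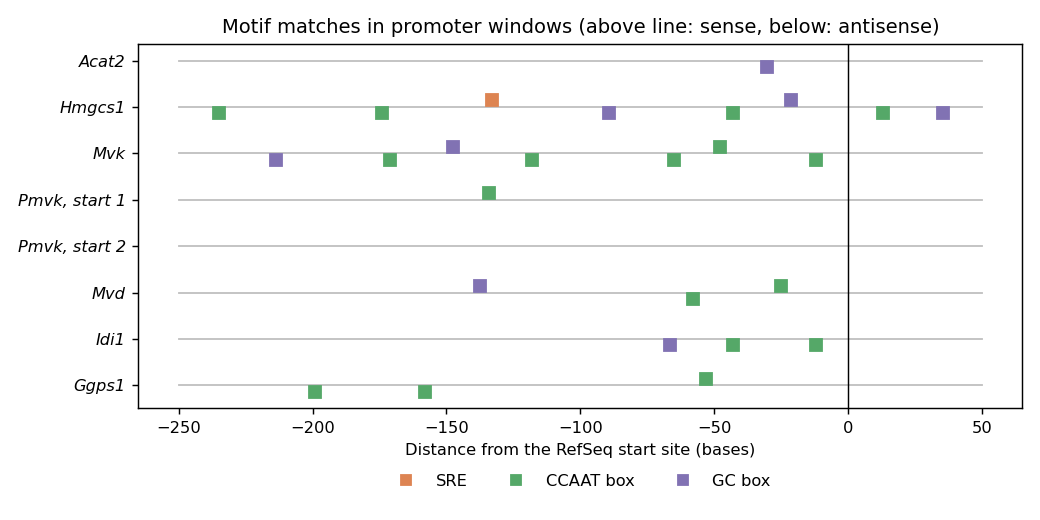
Positions of motif matches in the RefSeq promoter windows, in bases from the start site (vertical line), with sense matches above each gene's line and antisense matches below it. The sterol regulatory element (SRE) appears in the Hmgcs1 window alone among those shown, and CCAAT boxes in the windows of 6 of the 7 genes.

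Library totals ran from 13240704 to 14507038 reads in Bud31-vKO and from 13577015 to 18744466 reads in wild type. Levels are given as CPM, reads scaled to a common library size with TMM factors. Bud31-vKO library 2, with 12464 genes detected, and wild type library 3, with 13762, stood apart from the other 4 libraries, which had 18171 to 22300. Bud31 itself measured 65.1 ± 16.7 CPM in Bud31-vKO and 131 ± 31.1 CPM in wild type (SD, n = 3 each). The ratio of these means was 0.497, so Bud31 RNA remained in the Bud31-vKO libraries. Bud31 was not called, with an adjusted p of 0.9997 by edgeR's quasi-likelihood test. Of 20 germ cell markers, 2 to 3 had no read in a Bud31-vKO library and 1 to 4 in a wild type library, and the vasa gene Ddx4 measured 374 ± 134 CPM in Bud31-vKO and 661 ± 124 CPM in wild type. Thy1, the marker sorted for, measured 16.4 ± 12.1 CPM in Bud31-vKO and 13.3 ± 2.85 CPM in wild type, and Kit, the marker sorted against, 12.8 ± 11.8 CPM in Bud31-vKO and 30.7 ± 31.4 CPM in wild type (SD, n = 3 each). Against the germ cell label, 12 peritubular and stromal markers summed to 8631 to 14950 CPM in Bud31-vKO and 10740 to 21830 CPM in wild type, above the germ cell sum in each library.

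For 7 of the 8 genes, all but Ggps1, the highest Bud31-vKO level lay under the lowest wild type level. The groups were separated in this direction for 6.39% of all 15240 genes tested. The 8 levels summed to 262, 199 and 262 CPM in Bud31-vKO libraries 1 to 3, against 649, 824 and 558 CPM in wild type libraries 1 to 3, a 2.81-fold lower mean. The median log2 fold change, Bud31-vKO over wild type, was -1.92 for the 8 genes and 0.02 for all genes tested. It was -1 or below for 7 of the 8, against 15.2% of all genes. With p-values of edgeR's quasi-likelihood test adjusted over all genes (Benjamini-Hochberg), 0 of the 8 passed at 0.05 (adjusted p = 0.9997 for each), as did 0% of all genes. At an unadjusted p under 0.05, 3 of the 8 were lower, against 1.82% of all genes. DESeq2 on the same counts called 1 of the 8, Hmgcs1, lower, against 0.2% of the genes it adjusted. As the comparison led to the choice of these genes, nothing is read from these counts.

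**Figure D2:**
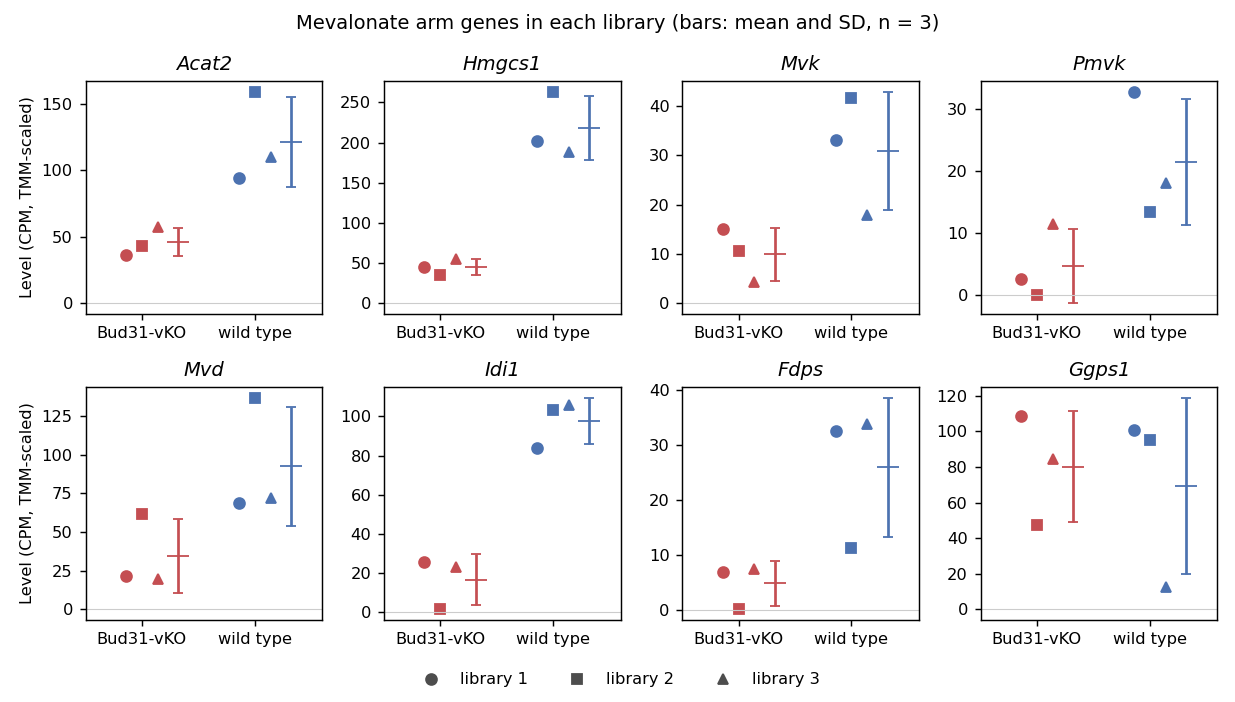
Level of each gene (CPM, TMM-scaled, linear axes) in 3 Bud31-vKO and 3 wild type libraries, one panel per gene, with the mean and SD beside the points. In all panels but that of Ggps1 the highest Bud31-vKO point lies below the lowest wild type point, with gaps that range from 1.11-fold for Mvd to 3.42-fold for Hmgcs1.

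Acat2, the cytosolic thiolase that joins acetyl-CoA units to acetoacetyl-CoA, opens the arm. It measured 36.5, 43.2 and 57.2 CPM in Bud31-vKO libraries 1 to 3, against 94.0, 159 and 110 CPM in wild type libraries 1 to 3. The lowest wild type library was 1.64-fold above the highest Bud31-vKO library. Its log2 fold change came to -1.41 (SE 0.42) and lay between -1.60 and -1.17 when 1 library was left out. Acat3, a paralog added after its values were seen, measured 0.0731, 0 and 1.92 CPM in Bud31-vKO, against 3.43, 2.98 and 1.86 CPM in wild type, and how reads matching both genes were counted is not given in the sources used here.

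Hmgcs1, the cytosolic HMG-CoA synthase, showed the widest separation in the arm. Its levels were 45.4, 34.5 and 55.01 CPM in Bud31-vKO, from 483 to 744 reads, against 202, 263 and 188 CPM in wild type, from 2773 to 4769 reads. All 3 Bud31-vKO libraries lay at 15.8% to 25.2% of the wild type mean. The means were 44.96 ± 10.3 and 218 ± 40.0 CPM (SD, n = 3 each), 4.85-fold lower in Bud31-vKO. The estimate on the log2 scale was -2.28 (SE 0.36), and with 1 library left out it ranged between -2.45 and -2.11. Its unadjusted p of 0.000253 by edgeR's quasi-likelihood test was the smallest of the 15240 genes, and the adjusted p was 0.9997. DESeq2 gave an adjusted p of 6.37e-06, while limma-voom gave 0.825, and over all alternatives the adjusted p ran from 6.37e-06 to 1. Of the promoters printed above, only that of Hmgcs1 held a match to the sterol regulatory element searched for, and any link to its level was not tested.

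The 3 enzymes that take mevalonate to isopentenyl diphosphate were all lower in Bud31-vKO, with narrow gaps. Mvk, mevalonate kinase, measured 14.98, 10.5 and 4.22 CPM in Bud31-vKO, against 33.1, 41.7 and 17.9 CPM in wild type. Wild type library 3 was only 1.20-fold above Bud31-vKO library 1, and the log2 fold change came to -1.64 (SE 0.94). Pmvk, phosphomevalonate kinase, measured 2.63, 0 and 11.5 CPM in Bud31-vKO, against 32.9, 13.4 and 18.2 CPM in wild type. No read fell on Pmvk in Bud31-vKO library 2, where the floor of 3 reads equals 0.214 CPM, and Bud31-vKO library 3 was close to the lowest wild type library. The log2 fold change of Pmvk, -2.19 (SE 1.83), was -1.60 without Bud31-vKO library 2 and -4.03 without Bud31-vKO library 3.

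Mvd, mevalonate diphosphate decarboxylase, measured 21.6, 61.9 and 19.5 CPM in Bud31-vKO, against 68.8, 137 and 71.8 CPM in wild type. Bud31-vKO library 2 stood high for this gene, at 66.9% of the wild type mean, while libraries 1 and 3 were at 23.3% and 21.1%. For Mvd the log2 fold change came to -1.43 (SE 0.62). Leaving out Bud31-vKO library 1 or 3 gave -1.15, leaving out Bud31-vKO library 2 gave -2.16, and leaving out wild type library 2 gave -1.04. With Bud31-vKO library 2 and wild type library 3 both left out it was -2.31.

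Idi1 and Fdps, which form and condense the isoprene units, were lower in each Bud31-vKO library, with few reads in library 2. Idi1, isopentenyl diphosphate isomerase, measured 25.3, 1.36 and 23.1 CPM in Bud31-vKO, against 83.9, 103 and 106 CPM in wild type. The wild type libraries were close together, and the lowest of them was 3.32-fold above the highest Bud31-vKO library. The value of 1.36 CPM in Bud31-vKO library 2 rests on 19 reads, with a 95% exact Poisson interval of 0.816 to 2.12 CPM that covers counting error only. For Idi1 the log2 fold change came to -2.56 (SE 0.95), to -2.00 without Bud31-vKO library 2 and to -1.94 when wild type library 3 was left out as well. Fdps, farnesyl diphosphate synthase, measured 6.87, 0.143 and 7.54 CPM in Bud31-vKO, against 32.7, 11.3 and 33.9 CPM in wild type. Wild type library 2 was low for Fdps, at 43.6% of the wild type mean, yet above each Bud31-vKO library. Bud31-vKO library 2 had 2 Fdps reads, with an interval of 0.0173 to 0.516 CPM. For Fdps the log2 fold change came to -2.42 (SE 1.46), to -1.84 without Bud31-vKO library 2 and to -1.60 when wild type library 3 was left out as well.

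Ggps1, geranylgeranyl diphosphate synthase, stands on the branch toward prenylated proteins and had a slightly higher mean in Bud31-vKO, 80.2 ± 31.0 CPM, than in wild type, 69.5 ± 49.4 CPM (SD, n = 3 each). It measured 109, 47.3 and 84.4 CPM in Bud31-vKO, against 101, 94.9 and 12.5 CPM in wild type. The groups overlapped, and the lowest of the 6 values was that of wild type library 3. For Ggps1 the log2 fold change came to 0.21 (SE 0.75), less than its standard error, and it turned to -0.27 without wild type library 3 and to -0.06 without Bud31-vKO library 1.

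**Figure D3:**
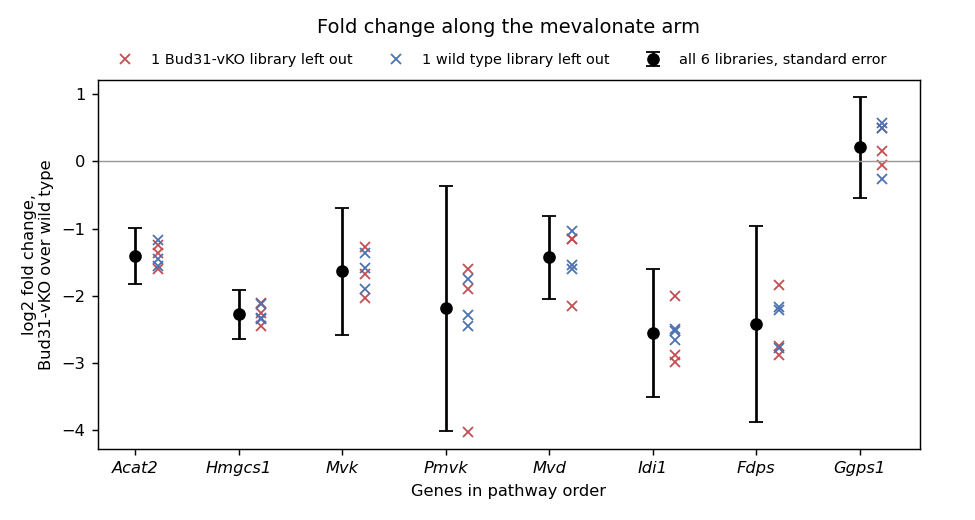
log2 fold change, Bud31-vKO over wild type, of the 8 genes in pathway order, with the standard error of the fit to 6 libraries (black) and the estimates with 1 library left out (crosses). Hmgcs1 and Acat2 have the shortest error bars, at 0.36 and 0.42, Pmvk the longest, at 1.83, and Ggps1 lies on both sides of 0.

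Medians over the arm were close among the Bud31-vKO libraries, while single genes and the summed level, lowest in library 2, varied. The median of the 8 genes was 26.2%, 24.9% and 27.1% of the wild type mean in Bud31-vKO libraries 1 to 3, and 99.9%, 126% and 85.5% in wild type libraries 1 to 3. Bud31-vKO library 2, with the fewest genes detected of the 6, held the lowest level of Hmgcs1, Pmvk, Idi1, Fdps and Ggps1 among the Bud31-vKO libraries but the highest of Mvd. Without Bud31-vKO library 2 and wild type library 3, the median log2 fold change of the arm was -1.82.

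Per length, Mvd and Acat2 had the highest mean levels of the arm in both genotypes, with Ggps1 next in Bud31-vKO and Hmgcs1 next in wild type. In CPM per kilobase of exon, the levels in Bud31-vKO were 18.5 ± 12.8 for Mvd, 17.9 ± 4.16 for Acat2, 17.0 ± 6.56 for Ggps1 and 9.79 ± 2.24 for Hmgcs1. Below them in Bud31-vKO came Idi1 at 4.73 ± 3.77, Mvk at 3.70 ± 2.02, Pmvk at 2.74 ± 3.50 and Fdps at 1.15 ± 0.97 CPM per kilobase. In wild type the levels were 49.7 ± 20.6 for Mvd, 47.6 ± 13.3 for Acat2 and 47.4 ± 8.70 for Hmgcs1, which did not differ beyond their spread, and 27.9 ± 3.40 for Idi1. The wild type levels of Ggps1 at 14.7 ± 10.5, Pmvk at 12.5 ± 5.94 and Mvk at 11.6 ± 4.50 CPM per kilobase overlapped one another, and Fdps had the lowest mean at 6.17 ± 3.02 (SD, n = 3 for each value). Ggps1 ranked 3 of 8 by mean in Bud31-vKO and 5 of 8 in wild type, and each other gene kept its rank or moved by 1.

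Exons of 4 of the genes overlap another annotated gene, and whether the counting used strand is not given in the sources used here. Fdps shares 26.7% of its exonic bases with the predicted gene Gm43738 on the same strand, which held at most 5 reads in a library. Idi1 shares 9.22% with Gm48574 on the opposite strand, which had 83 reads in Bud31-vKO library 3 and 0 in each other library. Ggps1 shares 5.44% with Arid4b on the opposite strand, a chromatin regulator at 161 ± 46.4 CPM in Bud31-vKO and 159 ± 31.2 CPM in wild type (SD, n = 3 each). Hmgcs1 shares 12.1% with the antisense gene Gm48342, for which the deposited counts hold no entry.

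Germ cell markers were lower in the same libraries as the arm. The 20 markers summed to 2243, 3071 and 3105 CPM in Bud31-vKO, against 4864, 5212 and 4114 CPM in wild type, 1.69-fold lower on average. Set against that sum, the arm came to 11.7%, 6.48% and 8.45% in Bud31-vKO libraries 1 to 3, against 13.3%, 15.8% and 13.6% in wild type libraries 1 to 3, with no overlap and a 1.6-fold lower mean. In bulk RNA, fewer germ cells and less RNA of these genes per cell cannot be told apart. Markers of T and natural killer cells summed to 206 to 528 CPM in Bud31-vKO and 13.8 to 148 CPM in wild type, from 12 genes of which 0 to 3 had no read in a Bud31-vKO library and 2 to 6 in a wild type library. Leydig cell markers, 10 genes of cells that make steroids from cholesterol, summed to 93.5 to 171 CPM in Bud31-vKO and 95.3 to 131 CPM in wild type, which overlapped. Of these 10, 3 to 7 had no read in a Bud31-vKO library and 4 to 8 in a wild type library. Endothelial, macrophage and erythroid marker sums overlapped too, at 1.07 to 241 CPM in Bud31-vKO and 9.48 to 211 CPM in wild type. Sertoli cell markers, 14 genes, summed to 395 to 2605 CPM in Bud31-vKO, highest in library 1, and to 460 to 877 CPM in wild type. Of these 14, 1 to 7 had no read in a Bud31-vKO library and 0 to 6 in a wild type library. The part of any of these cells in the levels of the arm was not tested.

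**Figure D4:**
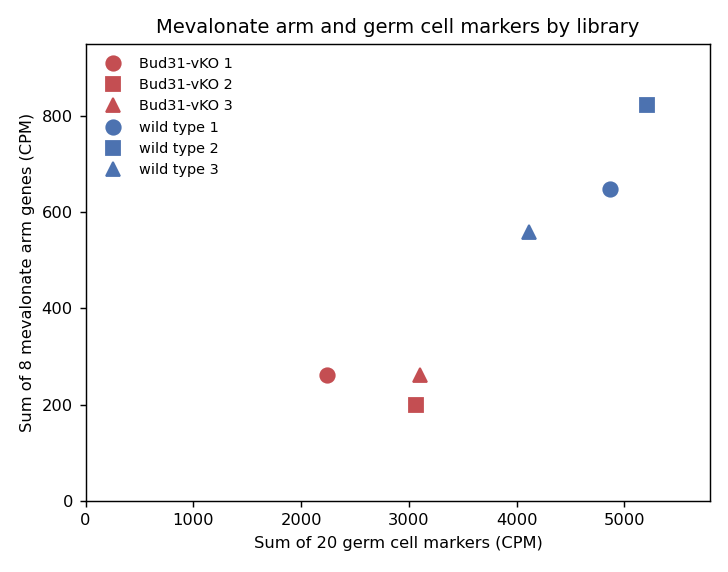
Summed level of the 8 mevalonate arm genes against that of 20 germ cell markers (CPM) in each library. The 3 Bud31-vKO libraries, at 199 to 262 CPM for the arm, lie below and to the left of the 3 wild type libraries, at 558 to 824 CPM.

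The pathways that feed and use the arm were read from the same fit, in which 0 genes of these 4 lists passed edgeR's adjusted threshold in either direction. DESeq2 also called 0 of them. Of 13 enzymes from squalene to cholesterol, 11 had a log2 fold change below 0, against 48.9% of all genes tested, with a median of -1.37. At an unadjusted p under 0.05, 5 of the 13 were lower, against 1.82% of all genes, and 8 had all Bud31-vKO libraries below wild type, against 6.39% of all genes. Sqle, squalene epoxidase, measured 67.6, 47.3 and 38.5 CPM in Bud31-vKO, against 125, 131 and 229 CPM in wild type. Msmo1, a sterol demethylation enzyme, and Lss, lanosterol synthase, had log2 fold changes of -1.87 and -1.83 with standard errors of 0.72 and 0.83.

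Users of the isoprenoid products lay nearer to 0. Of 22 genes of prenylation, dolichol, ubiquinone and related routes, 13 were below 0, with a median of -0.26. The groups did not overlap in 1 gene that was lower, Dhdds (-0.86), and 1 that was higher, Rabggtb (0.57), both named after their values were seen. The shares over all genes were 6.39% lower and 4.76% higher, so these counts are near the background. Chml, a Rab escort protein, had a log2 fold change of -1.19 with a standard error of 1.63, Fntb, a subunit of farnesyltransferase, -1.08 with 1.05, and Rabggta, a subunit of the Rab prenyltransferase, -1.04 with 0.52. Of 14 genes of acetyl-CoA supply and parallel enzymes 13 were tested, 11 of them below 0, with a median of -0.48. In 1, the beta-oxidation gene Hadhb (-0.53), named after its values were seen, all Bud31-vKO libraries were lower, a count near the 6.39% of all genes. Acaa1a, a peroxisomal thiolase, had -1.40, Slc25a1, the mitochondrial citrate carrier, -1.27, and Acss1, a mitochondrial acetyl-CoA synthetase, -0.71, with standard errors of 0.85, 1.53 and 1.08.

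Sterol regulators did not share one direction. Of 24 tested among 25, 12 were below 0 and 12 above, with a median of -0.07, and 1 gene, Mylip, had groups that did not overlap, near the 4.76% of all genes that were higher in this way. Mylip, a ubiquitin ligase, measured 49.6, 64.7 and 35.1 CPM in Bud31-vKO, against 16.8, 24.0 and 0 CPM in wild type. The log2 fold change of Mylip was 1.87 with a standard error of 1.61. The value of 0 was in library 3, the wild type library with the fewest genes detected. Abca1, a cholesterol exporter, had a log2 fold change of -1.47 with a standard error of 1.12, and its levels overlapped between the genotypes.

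**Figure D5:**
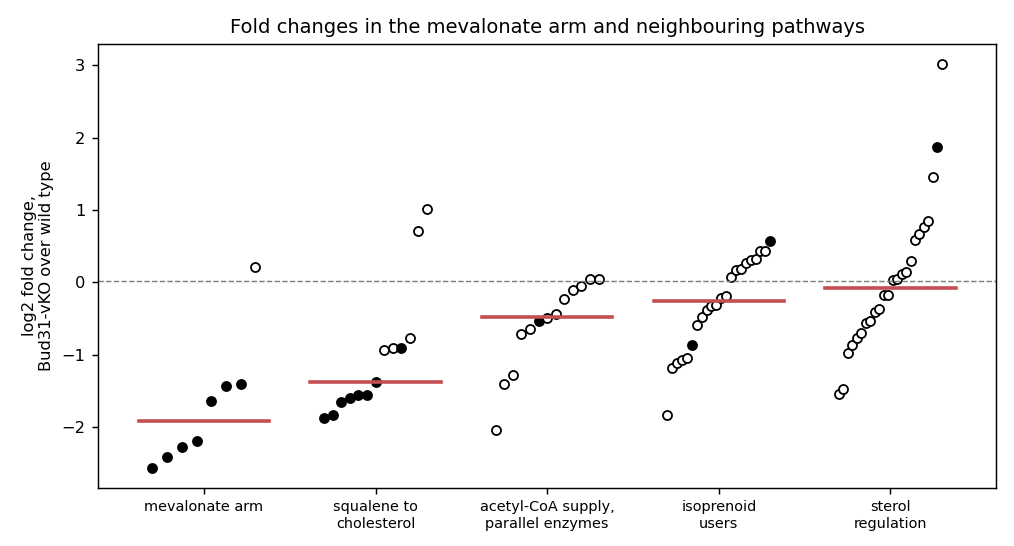
log2 fold change, Bud31-vKO over wild type, of each tested gene in the mevalonate arm and 4 neighbouring lists, with list medians as bars and the median of all genes, 0.02, as a dashed line. Filled points are genes whose groups did not overlap, 7 of 8 in the arm and 8 of 13 from squalene to cholesterol.

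Genes whose profile over the 6 libraries was nearest to that of Hmgcs1 were sought among the 8681 genes averaging 4 or more in log2 CPM, by the root mean square difference of centred log2 CPM. The nearest were Cdk2, a kinase of the cell cycle, at 0.327, Bckdhb, a subunit of branched-chain ketoacid dehydrogenase, at 0.389, the kinetochore gene Nsl1 at 0.424, Cdca7, a DNA-binding cell cycle gene, at 0.428, and the shelterin gene Tinf2 at 0.432. Bckdhb, for example, measured 20.4, 27.5 and 25.4 CPM in Bud31-vKO, against 72.9, 93.3 and 79.4 CPM in wild type. Within the arm, Acat2 was nearest to Hmgcs1 at 0.497, followed by Mvk at 0.772 and Mvd at 0.823. Among the 15239 genes compared without the limit on level, these ranked 15, 289 and 426. Idi1, Fdps, Ggps1 and Pmvk were at 1.29 to 1.90, on the same scale, and ranked 4107 to 8926.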

How the data were processed

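The deposited table holds whole-number read counts per Ensembl gene, unscaled, as its unequal totals show. Per the labels' protocols, cDNA was amplified by Smart-Seq2, and bcl2fastq and the build mm10 are named in the submitters' processing notes. The sources used here do not give the aligner, counting tool, annotation release or strand setting. Symbols, positions and exonic lengths came from GENCODE M21 on GRCm38 (99.5% of identifiers matched), promoters from RefSeq on GRCm38.p6.

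Of 51912 genes, 15240 passed the filterByExpr function (edgeR 4.0.16) with a minimum count of 10 and a minimum total of 15. Libraries were scaled by TMM and compared by edgeR's quasi-likelihood F test, adjusted by the Benjamini-Hochberg method at 0.05. Standard errors are the fold change over the root of F. CPM of all genes use these factors. The steps were tested on simulated data, where a pass was required only at a dispersion of 0.05. The common coefficient of variation that edgeR estimated for these data was 119%, a larger spread. The pass therefore does not show how many true changes would be called here. R 4.3.3, Python 3.11.15 and matplotlib 3.10.9 were used.

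Members and lists were chosen with earlier results of these data known. Besides the 8 genes and Bud31, the text names, in each list, the 3 genes of largest absolute log2 fold change among those averaging 4 or more in log2 CPM, the 5 nearest to Hmgcs1, and genes that overlap a member. Some genes that this rule names are not reported here. Ddx4, Thy1 and Kit are from the marker lists, and Acat3, Dhdds, Rabggtb and Hadhb were added after their values were seen. Other scalings (library size alone, upper quartile, RLE), other filters (none, or 5 CPM in 3 libraries), other tools (limma-voom from limma 3.58.1, DESeq2 1.42.0), a replicate block, totals without ribosomal RNA, haemoglobin and mitochondrial genes, each library left out, and Bud31-vKO library 2 with wild type library 3 left out were tried. Floors (3 reads) and intervals cover counting error only.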

Additional observations from a re-analysis of the deposited data

How the results depend on the processing

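By edgeR 0 genes were called over all genes, and 165 were higher and 278 lower at an unadjusted p under 0.05. Without a filter edgeR called 7 genes, none of them in the mevalonate arm. DESeq2, with the filter of the main edgeR fit, called 47. Of these, 1 was a gene of the mevalonate arm, Hmgcs1 (log2 fold change -2.24), which limma-voom did not call. The other settings, leaving out each library included, called 0. The median log2 fold change of the arm ranged from -2.03 to -1.68 and the log2 ratio of summed levels from -1.59 to -1.33. Acat2, Hmgcs1, Mvk, Pmvk, Mvd, Idi1 and Fdps had fold changes below 0 in each of the 16 settings. Ggps1 turned to -0.01 without both Bud31-vKO library 2 and wild type library 3, and ranged from -0.27 to 0.57 with 1 library left out. For genes with few reads in Bud31-vKO library 2, limma-voom gave larger changes, -4.20 for Pmvk, -3.41 for Fdps and -3.42 for Idi1. With the library number as a replicate block 0 genes were called, and the median of the arm was -2.01. Pmvk, Fdps and Idi1 then had -3.93, -3.31 and -3.15. The labels do not say whether the numbers pair the libraries. Deviations of same-numbered libraries correlated at 0.191, 0.041 and -0.076, and those of different-numbered libraries at -0.208 to 0.11. With 3 libraries per genotype these values cannot decide it. The cause of these shifts was not tested. Levels of Pmvk, Idi1, Fdps and Mvk in single Bud31-vKO libraries rest on 0 to 57 reads.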
